A study of Mus musculus with 2 samples.

Results

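The 9 genes Retnla, Chil3, Lyz1, Ear2, Saa3, Cbr2, Folr2, Lyve1 and Selenop, of 32285 genes counted, were followed in single cells of a mouse fibrosarcoma. They were listed by symbol, as secreted or cell-surface products of alternatively activated and tissue-resident macrophages, and they were chosen with their levels in these data known. Each library-to-library value of a listed gene is therefore a description. All 9 symbols were found in the files, and 8 reached 10 CPM (counts per 1e6 UMIs) in the phagocytes of at least 1 library. Ear2 did not.

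The iron-positive library holds the eluate of a magnetic column, meant to retain cells that carry iron. The iron-negative library holds the flowthrough of that column. Both came from subcutaneous tumors of a transplanted syngeneic fibrosarcoma in WT C57BL/6 mice, which were minced, digested with collagenase B and DNase I and cleared of red cells. The labels name neither the tumor line nor the number of animals, the files hold no measure of iron, and each fraction is 1 library with no replicate. No difference below has a replicate check or a p-value, and the intervals (95%, exact) cover counting error only.

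Macrophages exposed to IL-4 or IL-13 signal through IL-4 receptor alpha and the transcription factor STAT6, and in mice Retnla, Chil3, Arg1 and Mrc1 are textbook products of that state. Retnla encodes RELM-alpha, a small secreted cysteine-rich protein. Resident macrophages that lie along vessels in connective tissue are known instead by surface receptors such as LYVE1, FOLR2 and CD163 and by the secreted selenium carrier selenoprotein P. In several mouse tissues the resident cells also make RELM-alpha, so Retnla belongs to both programs.

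The proximal promoters of Retnla, Ear2 and Chil3 are shown because the results below turn on Retnla, on Ear2, whose iron-negative UMIs lay mostly in the same cells, and on Chil3, which had the opposite sign. RefSeq sequences of GRCm38.p6 were available for 8 of the 9 genes. The 250 bases before the annotated start are printed on the gene's strand, with capitals marking matches, on either strand, to a STAT6-type motif (TTCNNNNGAA) or a C/EBP-type motif (TTGCNNAA).
Retnla, chr16:48842359-48842608, plus strand: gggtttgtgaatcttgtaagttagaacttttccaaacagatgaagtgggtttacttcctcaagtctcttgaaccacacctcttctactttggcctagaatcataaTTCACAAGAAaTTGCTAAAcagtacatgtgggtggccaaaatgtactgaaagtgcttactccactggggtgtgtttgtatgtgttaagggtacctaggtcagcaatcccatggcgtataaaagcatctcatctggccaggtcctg
Ear2, chr14:44102404-44102653, plus strand: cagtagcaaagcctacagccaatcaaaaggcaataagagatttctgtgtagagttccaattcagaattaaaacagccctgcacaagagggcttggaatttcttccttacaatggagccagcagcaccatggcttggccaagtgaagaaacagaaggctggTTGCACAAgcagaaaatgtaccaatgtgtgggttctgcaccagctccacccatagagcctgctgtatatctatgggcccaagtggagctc
Chil3, chr3:106167565-106167814, minus strand: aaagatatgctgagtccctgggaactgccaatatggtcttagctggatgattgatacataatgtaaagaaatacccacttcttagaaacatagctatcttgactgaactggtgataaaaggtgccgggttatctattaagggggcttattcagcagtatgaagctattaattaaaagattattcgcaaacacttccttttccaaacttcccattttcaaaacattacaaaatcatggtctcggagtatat

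The Retnla window held TTCACAAGAA at bases 145 to 136 before the start and TTGCTAAA at bases 134 to 127, side by side and without overlap. The Ear2 window held TTGCACAA at bases 90 to 83, and the Chil3 window held neither motif. Lyz1 and Saa3 each had 1 match to the C/EBP-type motif, and 1 of the annotated Selenop starts had a match to the STAT6-type motif. Of 32851 promoters of this length, 5.85% held the first motif, 9.56% the second and 0.609% both. A match is a run of letters and not a bound site.

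The libraries held 13668 barcodes with 129921053 UMIs (iron-positive) and 10124 barcodes with 132796517 UMIs (iron-negative). Of the cells that passed filtering, 8135 of 12143 iron-positive cells (67.0%) and 8856 of 9403 iron-negative cells (94.2%) met a gate of phagocyte markers (Csf1r, Adgre1, Fcgr3, Tyrobp, Aif1 and Cd68). Gated phagocytes were shallower in the iron-positive library, with a median of 9881 UMIs against 13454 in the iron-negative library. The libraries shared 85 barcode sequences. Collagen-type mesenchymal markers summed to 101.6 CPM in iron-positive phagocytes and 22.5 CPM in iron-negative phagocytes, with 4 of 4 measured members at least 1.5-fold higher (2.30% of 7712 measured genes were). The endothelial list summed to 69.2 CPM in iron-positive and 58.7 CPM in iron-negative phagocytes. Its 1 measured member, Pecam1, had a log2 ratio of -0.26, and the rest had 334 to 695 UMIs in iron-positive and 13 to 182 UMIs in iron-negative phagocytes, with Cldn5 at 334 and 13. Of 2 measured neutrophil genes, S100a8 had 22.2 and 5.22 CPM and Csf3r had 35.6 and 39.2 CPM. Their part in the results was not tested.

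Over all gated phagocytes, Retnla was lower in the iron-positive library, while the 4 listed resident genes lay on both sides of 0. Among the 8 measured genes, Saa3 and Lyz1 were at least 1.5-fold higher, where 2.30% of all measured genes were, and Retnla and Cbr2 were at least 1.5-fold lower, where 0.648% were. Because the genes were picked on this contrast, nothing is read from those counts. The median log2 ratio of all measured genes was -0.11, and that of Cbr2, Folr2, Lyve1 and Selenop was 0.04.

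**Figure D1:**
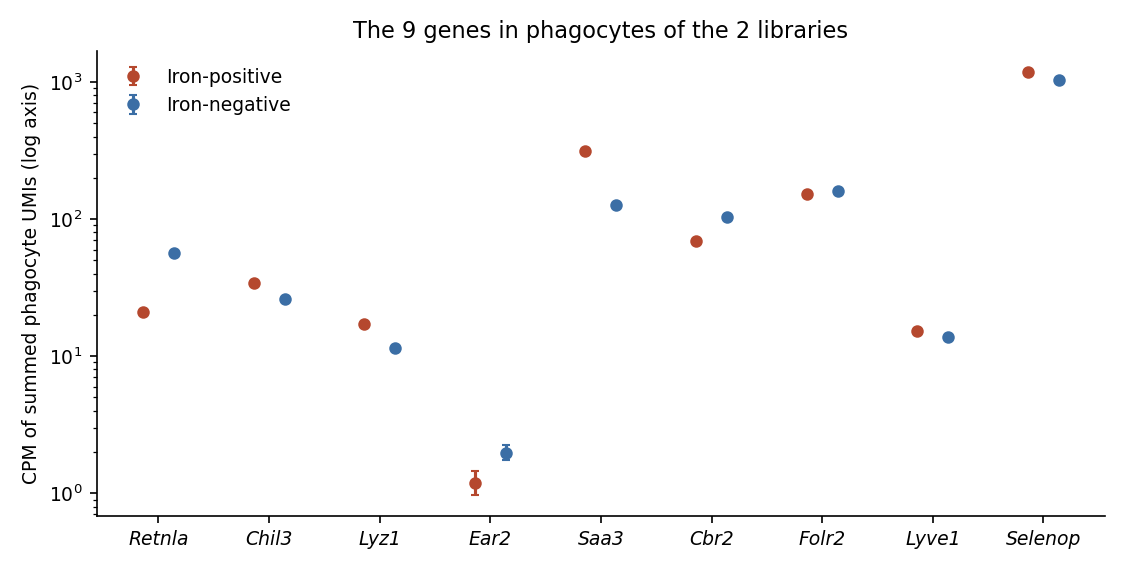
CPM of summed phagocyte UMIs (log axis) for each of the 9 genes, with iron-positive points left of iron-negative points and exact Poisson 95% bars for counting error only. Retnla (20.96 against 56.28 CPM) and Cbr2 (68.7 against 103.2 CPM) sit lower in the iron-positive library, Saa3 (315 against 126 CPM) sits higher, and Folr2, Lyve1 and Selenop lie close together.

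Retnla (chr16:48842551-48844461, plus strand, GRCm38) had 1859 UMIs in iron-positive phagocytes and 7021 UMIs in iron-negative phagocytes. That is 20.96 CPM (20.02 to 21.93) against 56.28 CPM (54.97 to 57.6), a log2 ratio of -1.42 (-1.50 to -1.35). Chil3 (chr3:106147554-106167564, minus strand), the chitinase-like protein Ym1, went the other way by a smaller amount, with 34.5 CPM in iron-positive and 26.1 CPM in iron-negative phagocytes and a log2 ratio of 0.40 (0.33 to 0.47). The 2 genes, both known as products of IL-4-exposed mouse macrophages, were thus on opposite sides of 0 in summed phagocyte CPM. By share of cells at full depth Chil3 was not higher, with a UMI in 9.22% of iron-positive and 11.2% of iron-negative phagocytes, the former shallower. With each cell thinned to 2000 UMIs, Chil3 was found in close shares, 4.10% of iron-positive and 3.94% of iron-negative phagocytes. Over all cells that passed filtering its log2 ratio was 0.09.

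Lyz1 (chr10:117287797-117292868, minus strand), the lysozyme best known from Paneth cells in mice, had 17.2 CPM in the iron-positive library and 11.5 CPM in the iron-negative library, a log2 ratio of 0.59 (0.48 to 0.69). Its neighbour Lyz2, the general macrophage lysozyme, had 6205 and 5558 CPM, a log2 ratio of 0.16. Of 60-base windows from the last 500 bases of the Lyz1 transcript, 11.8% also occur in Lyz2, so a part of the Lyz1 signal is uncertain. The same holds for Cbr2 (31.7%, with Gm11771), Chil3 (15.2%, with Chil4 and Gm6522) and Saa3 (10.4%), and not for Retnla, Folr2, Lyve1 or Selenop, which shared none. Ear2 (chr14:44102654-44103534, plus strand), a ribonuclease of the eosinophil-associated family, had 106 and 247 UMIs, or 1.195 and 1.98 CPM, a log2 ratio of -0.72 (-1.07 to -0.39). In Ear2, 29.9% of such windows occur in other family members or pseudogenes, whereas Ear1, Ear6, Ear10 and Ear14 had 0 UMIs in both libraries. None of 5 eosinophil markers reached 10 CPM, and Epx, which encodes the eosinophil peroxidase, was at 0 in the phagocytes of both libraries.

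Saa3 (chr7:46711998-46715700, minus strand), an acute-phase serum amyloid protein that mouse macrophages make locally, had 315 CPM in iron-positive and 126 CPM in iron-negative phagocytes, a log2 ratio of 1.33 (1.30 to 1.35). Saa3 was also present in the cells of the mesenchymal marker class, at 434 CPM in 308 iron-positive cells and 1025 CPM in 55 iron-negative cells. For Saa3 alone among these genes the mesenchymal class therefore matched or passed the phagocytes in CPM, in both libraries, and its part in the phagocyte values was not tested. The relatives Saa1, Saa2 and Saa4 had 5, 0 and 0 UMIs in iron-positive phagocytes and 1, 0 and 1 UMIs in iron-negative phagocytes.

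The resident genes split. Cbr2 (chr11:120729489-120732114, minus strand), a carbonyl reductase, had 68.7 CPM in iron-positive and 103.2 CPM in iron-negative phagocytes, a log2 ratio of -0.59 (-0.63 to -0.54). Folr2 (chr7:101839988-101857194, minus strand), the folate receptor beta, had 153 and 160 CPM, a log2 ratio of -0.07 (-0.10 to -0.03). Lyve1 (chr7:110850607-110863239, minus strand), a hyaluronan receptor shared with lymphatic endothelium, had 15.2 and 13.7 CPM, a log2 ratio of 0.14 (0.04 to 0.25). Selenop (chr15:3268547-3280508, plus strand) had 1180 and 1028 CPM, a log2 ratio of 0.20 (0.19 to 0.21). Relative to the median of all genes, only Cbr2 of these 4 was below it. The lymphatic endothelial genes Prox1, Mmrn1 and Reln had 3, 1 and 2 UMIs in iron-positive phagocytes and 0 in iron-negative phagocytes. Of the same list, Flt4 had 55 and 29 UMIs, and Pdpn had 213 and 150 CPM (log2 ratio 0.51). Their part in the Lyve1 values was not tested.

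The scavenger receptor Cd163, a resident gene outside the list, stood well apart from Retnla, with 52.5 CPM in iron-positive phagocytes and 14.2 CPM in iron-negative phagocytes, a log2 ratio of 1.89 (1.81 to 1.97). Of a resident program list of 30 genes, 26 were measured, of which 9 were at least 1.5-fold higher and 1 lower, with a median log2 ratio of 0.29. Over all measured genes 2.30% were higher and 0.648% lower, with a median of -0.11. The C-type lectins Cd209g and Cd209f and the scavenger receptor Marco had the largest log2 ratios, at 2.59, 2.34 and 2.18. The lowest were Stab1 (stabilin-1) at -0.71, the transcription factor Klf2 at -0.38 and the lectin Mgl2 at -0.33. Cd163, Cd209f, Cd209g and Marco were themselves listed with earlier results of these libraries known.

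Of 27 genes listed for the IL-4 and IL-13 response, 22 were measured, of which 1 (Clec10a, a galactose-type lectin) was at least 1.5-fold higher and 0 were lower, with a median log2 ratio of -0.08. That is close to the shares and the median of all measured genes, and nothing about the response is read from it. Il4ra, the receptor chain, had 188 CPM in iron-positive and 204 CPM in iron-negative phagocytes, and Stat6 had 61.9 and 68.7 CPM, for log2 ratios of -0.12 and -0.15. Mrc1, the mannose receptor, had a log2 ratio of -0.29 and Arg1, arginase 1, one of 0.47. The largest log2 ratios were those of Clec10a at 0.85, Flt1 at 0.49 and Arg1, and the lowest were Pdcd1lg2 at -0.53, Ch25h at -0.52 and Matk at -0.52. Clec10a, Mrc1, Mgl2 and Ccl24 are also on the resident program list. The nearest relatives of Retnla and Chil3 were almost undetected, with 2 and 5 UMIs of Retnlg, 0 and 0 of Retnlb, 1 and 0 of Chil4 and 1 and 4 of Chil1 in iron-positive and iron-negative phagocytes.

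The Retnla difference sat in a small number of very rich cells. In iron-positive phagocytes 1 cell with 671 Retnla UMIs held 36.1% of the total, and the next had 407 and 152 UMIs. In iron-negative phagocytes the highest cells had 1182, 566 and 559 UMIs, and the first held 16.8% of the total. The 10 richest cells held 83.4% of iron-positive and 64.4% of iron-negative Retnla UMIs. Thus 2 iron-positive cells and 6 iron-negative cells were enough to hold 50% of the UMIs, and 16 and 31 cells were enough for 90%. For Selenop the same 50% took 639 and 1682 cells, and for Chil3 70 and 104 cells.

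**Figure D2:**
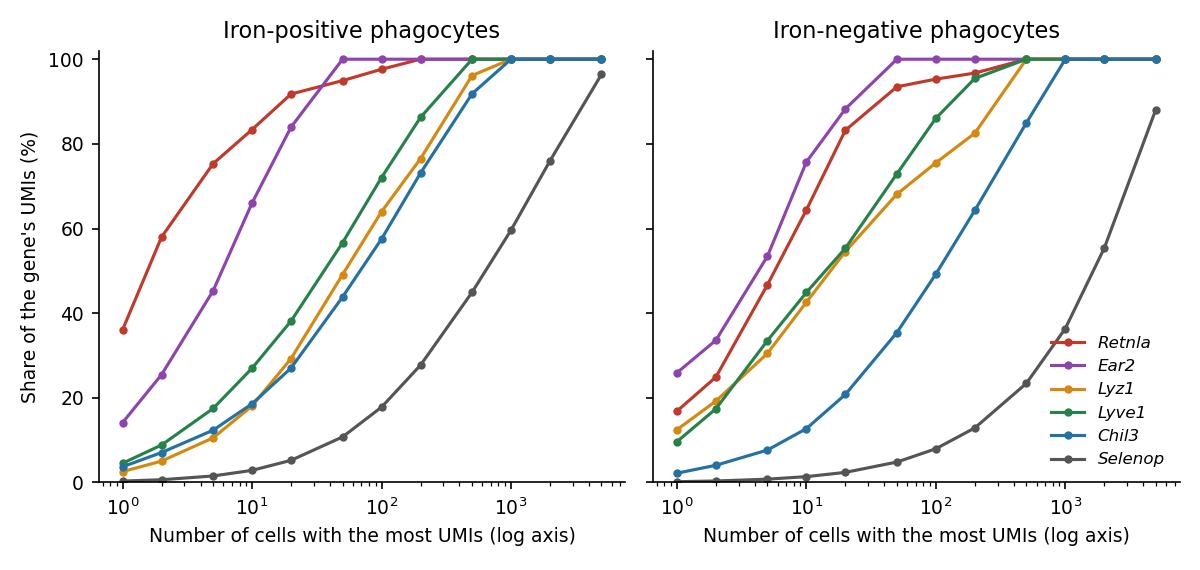
Share of a gene's phagocyte UMIs (%) held by the cells richest in it, against the number of such cells (log axis), in the iron-positive library on the left and the iron-negative library on the right. Retnla and Ear2 reach most of their UMIs within the first 20 cells in both libraries, and Selenop needs 639 and 1682 cells for 50%.

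Most phagocytes with any Retnla held 1 UMI, which by the share of cells could not be told from free RNA. At least 1 UMI was found in 144 iron-positive phagocytes (1.77%, 1.495 to 2.08) and 430 iron-negative phagocytes (4.86%, 4.42 to 5.32), of which 104 and 343 had exactly 1. In mesenchymal-class cells, which should lack the gene, 2.27% of iron-positive and 5.45% of iron-negative cells had a UMI, at median depths of 18155.5 and 42928 UMIs. The phagocyte shares are at or below those shares, in cells of lower depth. Per UMI, phagocytes other than the Retnla-rich ones defined next had 1.77 CPM in the iron-positive and 3.37 CPM in the iron-negative library, against 0.886 and 1.18 CPM (7 and 3 UMIs) in the mesenchymal class. No mesenchymal-class cell reached 5 Retnla UMIs. A cell with at least 5 UMIs is called Retnla-high below, a limit chosen after the values were seen.

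There were 19 Retnla-high cells among iron-positive phagocytes (0.234%, 0.141 to 0.364) and 57 among iron-negative phagocytes (0.644%, 0.488 to 0.833). They held 91.6% of the iron-positive and 94.1% of the iron-negative Retnla UMIs. The ratio of the 2 shares was 0.363 (0.204 to 0.619). None of these cells carried a barcode found in both libraries. Within them Retnla took a median of 0.492% of a cell's UMIs in the iron-positive library and 0.232% in the iron-negative library, so the iron-positive Retnla-high cells were not poorer in it. They were shallower, at a median of 6912 UMIs in iron-positive and 15036 UMIs in iron-negative cells, and a limit of 5 UMIs admits lower shares in deeper cells.

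The size of the gap in cell numbers at equal depth is uncertain. When each cell was thinned to 2000 UMIs, 15 iron-positive and 30 iron-negative cells had at least 5 Retnla UMIs (0.204% and 0.351%), and the log2 ratio of the shares was -0.76 (-1.78 to 0.16). With a limit of 0.1% of a cell's UMIs, 23 and 42 cells passed (0.283% and 0.474%), a log2 ratio of -0.73 (-1.55 to 0.02). Both intervals include 0, so at equal depth a lower frequency of Retnla-rich cells was not shown. They also include the log2 ratio of -1.44 found without thinning, so a change with depth was not shown either. The limit of 5 UMIs is also stricter in a thinned cell. Without thinning, a limit of 3 UMIs gave -1.07 (-1.77 to -0.44) and a limit of 10 UMIs gave -1.22 (-2.15 to -0.41). Of the members, counts of cells with at least 5 UMIs were close for Chil3 (155 and 159 cells, ratio of shares 1.06, 0.845 to 1.33) and for Lyve1 (68 and 71 cells, ratio 1.04, 0.737 to 1.48).

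The gate also touched the iron-positive Retnla count. In kept cells outside every marker class, 751 Retnla UMIs were found in the iron-positive library and 88 in the iron-negative library, and 6 and 2 of those cells were Retnla-high. One iron-positive cell with 558 Retnla UMIs missed the gate with 7 UMIs of Ighm, an immunoglobulin gene, among its 10 UMIs of other-lineage markers. With Ighm left out of those markers, the log2 ratio of Retnla was -0.99. Without the richest cell of each library it was -1.81, and over all kept cells it was -1.38.

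The other listed genes were tied to the Retnla-high cells in different degrees. In iron-negative phagocytes the 57 Retnla-high cells held 78.5% of Ear2 UMIs and 49.4% of Lyz1 UMIs. Of those 57 cells, 21 had an Ear2 UMI and 27 a Lyz1 UMI. The iron-negative phagocyte richest in each gene held 25.9% of all Ear2 and 12.45% of all Lyz1 UMIs there, so few cells set these shares. In iron-positive phagocytes the 19 cells held 19.8% of Ear2 UMIs and 2.49% of Lyz1 UMIs. Of cells with at least 5 Ear2 UMIs, 2 of 8 iron-positive and 10 of 12 iron-negative cells were Retnla-high. Of cells with at least 5 Lyz1 UMIs, 3 of 75 iron-positive and 18 of 39 iron-negative cells were Retnla-high.

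Leaving out the Retnla-high cells therefore altered Ear2 and Lyz1. The log2 ratio of Ear2 was 1.16 (0.65 to 1.69) without these cells and -0.72 with them. That of Lyz1 was 1.53 (1.40 to 1.66) without them, with 16.8 CPM in iron-positive and 5.84 CPM in iron-negative phagocytes. The remaining Retnla, at 1.77 and 3.37 CPM, had a log2 ratio of -0.92. Cbr2, Folr2, Lyve1 and Selenop moved by less than 0.1 log2, to -0.58, -0.05, 0.17 and 0.21, and Chil3 stayed at 0.39.

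**Figure D3:**
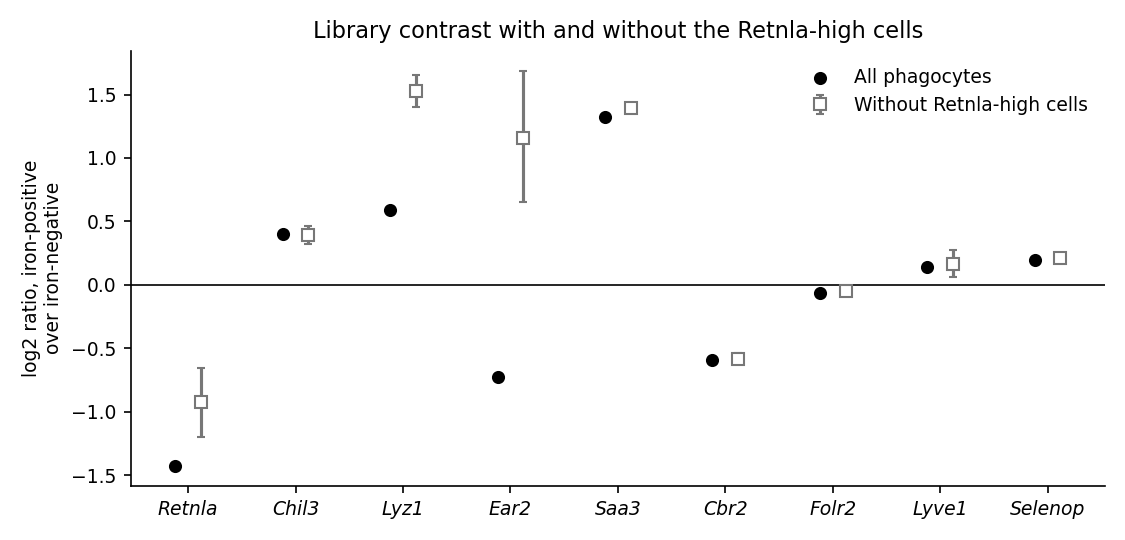
Log2 ratio of iron-positive over iron-negative phagocyte CPM for the 9 genes in all phagocytes (filled circles) and without Retnla-high cells (open squares, exact 95% bars for counting error only). Ear2 goes to 1.16 and Lyz1 to 1.53 without those cells, while the 4 resident genes, Chil3 and Saa3 stay near their first value.

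The resident genes were shared by Retnla-high cells and by many others. Cbr2 was detected in 15 of 19 iron-positive Retnla-high cells (78.9%) and 46 of 57 iron-negative ones (80.7%), against 24.7% and 39.1% of the other phagocytes. For Lyve1 the shares were 57.9% and 45.6%, against 4.61% and 2.86% of the others. Folr2 was detected in 89.5% and 87.7%, against 48.0% and 58.6% of the others. Selenop was detected in 94.7% and 93.0%, against 87.8% and 94.5% of the others. Without thinning, its detection thus did not set the iron-negative Retnla-high cells apart. Thinned to 2000 UMIs, 27 of 30 iron-negative cells with at least 5 Retnla UMIs had Selenop, against 74.3% of the others. The interval of that share (73.5 to 97.9%) includes 74.3%. With at least 1 Retnla UMI, 117 of 130 thinned iron-negative cells had it (83.5 to 94.6%), against 74.1% of the others. Of thinned cells with at least 5 Retnla UMIs, 10 of 15 iron-positive and 10 of 30 iron-negative ones had Cbr2, against 10.4% and 15.7% of the others. For Folr2 it was 10 and 12 cells against 21.3% and 22.6%, and for Lyve1 5 and 6 cells against 1.80% and 1.31%. The iron-negative intervals were 17.3 to 52.8% for Cbr2 and 22.66 to 59.4% for Folr2, the latter barely above the others. Retnla-high cells made up 0.234% of iron-positive and 0.644% of iron-negative phagocytes, so most of each gene's UMIs lay outside them. They held 1.89% of Cbr2, 0.921% of Folr2, 5.20% of Lyve1 and 0.466% of Selenop UMIs in the iron-positive library. In the iron-negative library they held 2.89%, 2.54%, 7.36% and 2.09%. Each of these shares was above the share of cells.

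By level, 6 of the 8 measured genes (Retnla, which set the limit, included) were at least 1.5-fold higher in Retnla-high than in other phagocytes of both libraries, where 7.49% of all measured genes were, and 1 (Chil3) was lower, where 8.43% were. Lyve1 had 450 CPM in Retnla-high and 14.4 CPM in other iron-positive phagocytes, and 144 and 12.8 CPM in those of the iron-negative library. Cbr2 had 739 and 67.5 CPM in iron-positive and 424 and 101 CPM in iron-negative phagocytes. Selenop had 3135 and 1177 CPM and, in the iron-negative library, 3052 and 1014 CPM. Saa3 differed between libraries, with 231 CPM in Retnla-high and 316 CPM in other iron-positive phagocytes, but 914 and 120 CPM in those of the iron-negative library. Genes of cells chosen on their own counts are given here with no test.

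**Figure D4:**
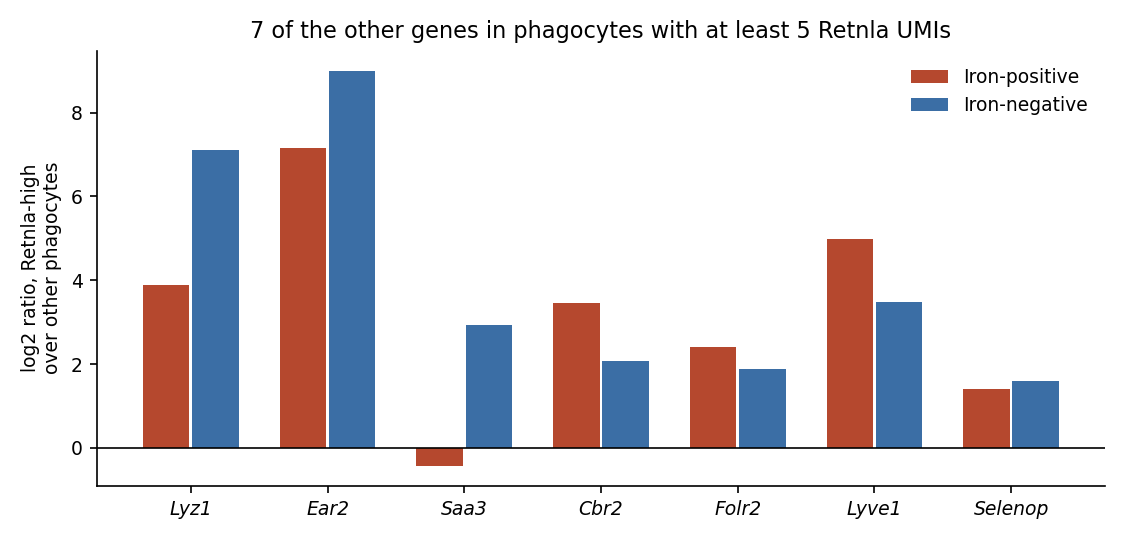
Log2 ratio of CPM in Retnla-high over other phagocytes for 7 of the listed genes in the iron-positive library (left bar) and the iron-negative library (right bar). Each of them except Saa3 in the iron-positive library (-0.43) is above 0, and Ear2 is the highest in both libraries (7.16 and 9.004). Ear2 was below 10 CPM over all phagocytes. Its iron-positive value rests on 21 UMIs in 2 of 19 Retnla-high cells, and its iron-negative value on 194 UMIs in 21 of 57.

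No gated phagocyte of either library was rich in both Chil3 and Retnla, but the cells are too few to show that the genes exclude each other. None had at least 5 UMIs of both, among 155 iron-positive and 159 iron-negative cells at that level of Chil3, where Retnla-high cells made up only 0.234% and 0.644% of phagocytes. Of the 19 iron-positive Retnla-high cells, 0 had a Chil3 UMI, which allows a share of up to 15.8% by 3 counts (17.65% by the exact interval), and 9.24% of the other phagocytes had one. In the iron-negative library 4 of 57 Retnla-high cells had it (7.02%, 1.95 to 17.0), against 11.2% of the others, so the shares did not differ beyond counting error. By level, Chil3 had 4.56 CPM in iron-negative Retnla-high cells, against 26.3 CPM in the others.

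Cells rich in Lyve1 were mostly rich in the other resident genes. Of iron-positive cells with at least 5 Lyve1 UMIs, 43 of 68 had as much Cbr2, 48 as much Folr2 and 61 as much Selenop. Of the iron-negative ones, 62 of 71 had as much Cbr2, 65 as much Folr2 and 70 as much Selenop. Over all phagocytes that level was reached by Cbr2 in 4.72% of iron-positive and 9.42% of iron-negative cells, by Folr2 in 11.6% and 16.5%, and by Selenop in 53.7% and 75.3%. Of the Folr2-rich cells, 5.07% of iron-positive and 4.46% of iron-negative ones were rich in Lyve1, against 0.836% and 0.802% of all phagocytes. Folr2-rich cells numbered 947 and 1458, far more than the Lyve1-rich cells, so that share could not be large. Retnla-high cells made up 3 of the iron-positive and 9 of the iron-negative Lyve1-rich cells.

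A Retnla UMI was less frequent in the eluate in cells with Cd163 and in cells without it, counted as cells with at least 1 UMI of the gene. A single UMI may be free RNA, and Retnla over the whole library was 20.22 CPM (iron-positive) and 53.65 CPM (iron-negative). The part of free RNA in these shares was not tested. The intervals cover the cells of 1 library per group. Among phagocytes thinned to 2000 UMIs, 8 of 446 Cd163-positive iron-positive cells (1.79%) and 14 of 217 iron-negative cells (6.45%) had a Retnla UMI, a difference of -4.66 percentage points (-8.92 to -1.31). Without thinning the shares were 2.34% of 941 and 9.47% of 528 cells. In Cd163-negative cells thinned alike, 0.521% (0.365 to 0.720) of iron-positive and 1.39% (1.15 to 1.67) of iron-negative cells had a Retnla UMI, below the intervals of the Cd163-positive cells of the same library (0.778 to 3.50% and 3.57 to 10.6%). Asking for 3 Retnla UMIs gave 0.673% and 2.76%, and the interval of that difference (-5.29 to 0.07) includes 0. Cd163-rich cells (at least 5 UMIs) numbered 311 and 108, of which 1 iron-positive and 8 iron-negative cells were Retnla-high.

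Outside the 9 listed genes, the genes that led the Retnla-high cells in both libraries, named after their values were seen, were the lectin Cd209d, lipoprotein lipase (Lpl), Fgfr1, Fam43a and the lectin Clec10a. Lpl had 373 CPM in Retnla-high and 21.7 CPM in other iron-positive phagocytes, and 409 and 21.0 CPM in iron-negative ones. Clec10a had 816 and 81.8 CPM in iron-positive and 668 and 41.5 CPM in iron-negative phagocytes. Among the lowest were the chemokine Cxcl9, with 51.4 and 1175 CPM in iron-positive and 204 and 1485 CPM in iron-negative phagocytes, the integrin Itgax and the mitotic gene Birc5. Of the resident program list, 20 of 26 measured genes were at least 1.5-fold higher in Retnla-high cells of both libraries and 0 were lower. Of the IL-4 list, 7 of 22 were higher and 4 lower. Mrc1, Mgl2, Clec10a and Ccl24 are on both lists and were counted as higher in each, so the counts are not separate. Over all measured genes the shares were 7.49% higher and 8.43% lower.

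Phagocytes were split into 9 states by small sets of genes that hold none of the listed 9, and each state is called by its leading genes. Retnla was lower in the iron-positive library in 8 of the 9 states. In 1 of them, led by Il1r2 and Ifitm1, the interval included 0 (log2 ratio -0.77, -1.91 to 0.22). In the cycling state Retnla was higher (3.16 against 2.44 CPM), but that interval also included 0 (log2 ratio 0.38, -0.29 to 1.03). There 1 iron-positive cell gave 24 of 39 UMIs. Among phagocytes of no state Retnla was also higher, at 22.6 CPM in 929 iron-positive cells and 3.22 CPM in 834 iron-negative cells. The log2 ratio was 2.80 (2.24 to 3.44), and 1 iron-positive cell gave 152 of 164 UMIs. In the state led by Cd163 and Cd209f, which made up 683 iron-positive and 215 iron-negative cells, Retnla had 28.9 CPM in iron-positive cells and 1038 CPM in iron-negative cells. That state held 5 iron-positive and 22 iron-negative Retnla-high cells. In the state led by Ly6c2 and Plac8, genes of monocytes, Retnla had 3 UMIs in 539 iron-positive cells and 574 UMIs in 571 iron-negative cells, 8 of which were Retnla-high.

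The MHC class II state held 8 iron-positive and 14 iron-negative Retnla-high cells, with 46.1 and 73.7 CPM. The interferon state had 134 and 173 CPM, and 1 cell gave 671 of its 716 iron-positive UMIs. Retnla was thus spread over several states in both libraries.

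Cbr2 and Folr2 were lower in iron-positive cells in 9 of 9 states, with log2 ratios of -1.72 to -0.32 for Cbr2 and -0.87 to -0.12 for Folr2. Lyve1 and Selenop were each lower in 7 of 9 states. For Lyve1 the interval included 0 in the state led by Fcrls and Cx3cr1 (-1.72 to 1.17) and in that led by Il1r2 and Ifitm1 (-1.40 to 1.21). It also included 0 in the MHC class II and cycling states, where Lyve1 was higher. In the Cd163 and Cd209f state Lyve1 had 78.4 CPM in iron-positive and 233.5 CPM in iron-negative cells, Cbr2 had 208 and 498 CPM, and Selenop had 5234 and 3387 CPM. Selenop was thus the one of these 4 that was higher there.

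**Figure D5:**
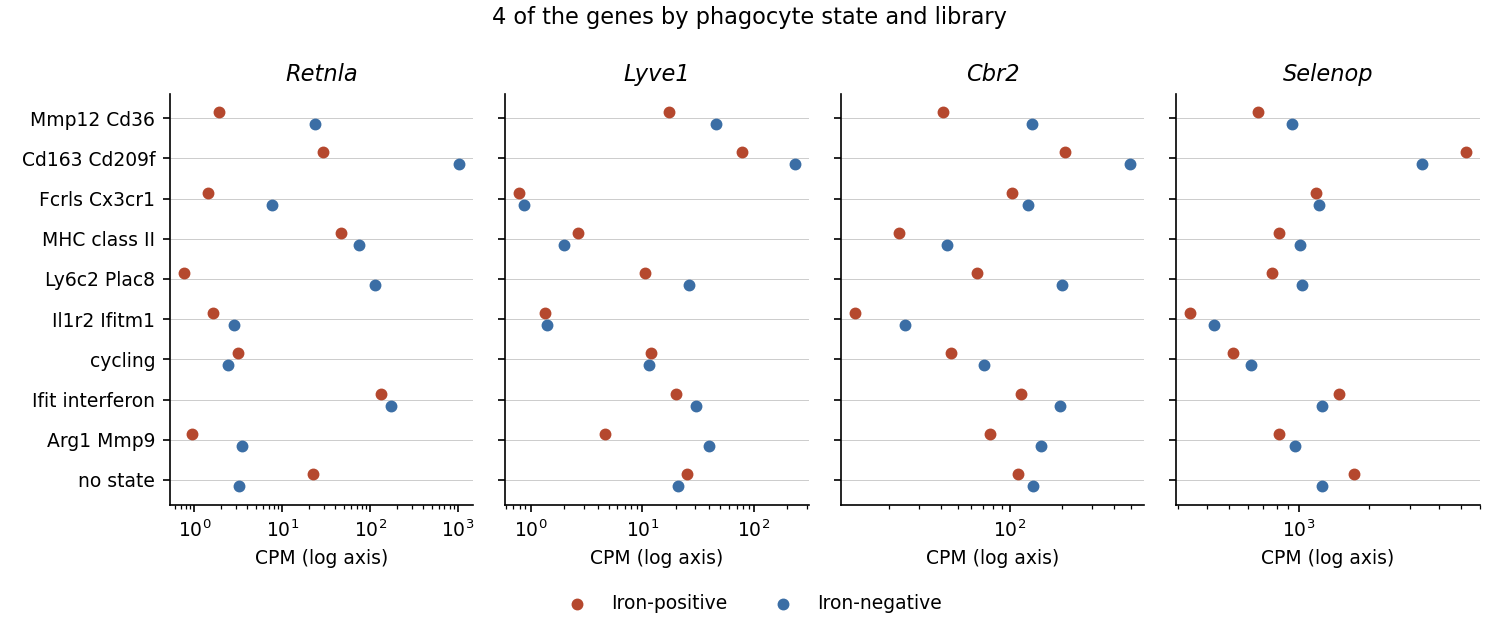
CPM (log axis) of Retnla, Lyve1, Cbr2 and Selenop in each phagocyte state and in cells of no state, with the iron-positive point above the iron-negative point. Retnla in the Cd163 and Cd209f state lies at 28.9 CPM in iron-positive and 1038 CPM in iron-negative cells, and Cbr2 lies lower in iron-positive cells in all 9 states and in cells of no state.

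The states themselves differed in number, and the Cd163 and Cd209f state, defined by genes known to differ, was the larger in the eluate. Splitting each gene's difference into a part from state sizes and a part within states gave opposite signs for 5 genes. For Retnla the state sizes added 25.5 CPM and the levels within states took away more, at -60.8 CPM, for a total of -35.3 CPM. For Lyve1 the parts were 14.4 and -13.0 CPM, for Cbr2 18.4 and -52.9 CPM, for Folr2 28.9 and -36.0 CPM, and for Ear2 0.365 and -1.15 CPM. For Selenop they were 135 and 16.5 CPM, and for Saa3 179 and 10.4 CPM. With states weighted equally the median log2 ratio of Cbr2, Folr2, Lyve1 and Selenop was -0.67. That of Saa3 was -0.01, so the higher Saa3 of the pooled eluate was not seen at equal weights. This is a ratio of mean state CPMs, in which the Cd163 and Cd209f state, with the most Saa3, weighs most. State by state, Saa3 was higher in iron-positive cells in 5 of 9 states and lower in 4, with intervals clear of 0. In cells of no state its log2 ratio was 0.87.

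Saa3 was highest in the Cd163 and Cd209f state, at 1799 CPM in iron-positive and 2128 CPM in iron-negative cells. Chil3 was highest in the Ly6c2 and Plac8 state, at 254 and 166 CPM, where Retnla had 0.755 and 112.5 CPM. By state, Chil3 was higher in iron-positive cells in 4 of 9 states and lower in 5. Among the lower ones, the interval included 0 in the state led by Fcrls and Cx3cr1 (-0.82 to 0.20) and in the cycling state (-0.74 to 0.24). The higher ones had intervals above 0. Lyz1 had 63.7 and 57.7 CPM in the Cd163 and Cd209f state. Ear2 had 54 of its 106 iron-positive UMIs in the Ly6c2 and Plac8 state, and 151 of its 247 iron-negative UMIs in the MHC class II state.

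Over 20 sums of UMIs by state and library (those with at least 50 cells), the genes whose log2(CPM + 10) tracked Retnla most closely among 4075 genes were Lifr (Pearson r 0.80), Max (0.80), Chka (0.79), Rab22a (0.76) and Trim12c (0.76). Of the listed genes the nearest were Lyz1 (0.64) and Lyve1 (0.61), and Chil3 had an r of -0.02. These sums share libraries and depth, and a few cells set the Retnla value in each.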

How the data were processed

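Each library was made with the 3' v3 chemistry of 10x Genomics, per the labels. The deposited matrices are unnormalised UMI counts, which the authors made with Cell Ranger on the mm10 build. The submitters' processing notes name version 3.1.0 and the file headers 5.0.0. Each deposited barcode had at least 500 UMIs. The members and all lists were chosen with earlier results of these data known.

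Cells with at least 200 genes and at most 15% mitochondrial UMIs were kept. Phagocytes had 3 of 6 gate markers and at least 80% of their lineage-marker UMIs from the gate, against 7 other lineages. States were given by the highest mean z score of log-scaled marker counts, at least 0.5, and 562 (6.91%) iron-positive and 624 (7.05%) iron-negative phagocytes lay within 0.1 of that limit. No doublet caller was run. UMIs were summed per library as CPM, and log2 ratios used each count plus 0.5. Intervals are exact (Poisson, Clopper-Pearson binomial and conditional binomial), and 0 cells allow a share of 3 counts of the total. Thinning to 2000 UMIs (seed 1) left out 776 iron-positive and 299 iron-negative phagocytes. Named genes were the 9 members, the 3 largest log2 ratios in each direction of the IL-4 and resident lists, Il4ra, Stat6, Cd163, Mrc1 and Arg1, and the 5 genes closest to Retnla. Coordinates came from GENCODE M21 (GRCm38), in which 9 of 9 IDs matched, and promoters from RefSeq. Software was Python (3.11.15) with scipy (1.17.1), numpy (2.4.6), pandas (2.3.3) and matplotlib (3.10.9). The ratio and thinning steps were tested on simulated data.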

Additional observations from a re-analysis of the deposited data

Results flagged for a closer look

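For 6 of the genes the contrast between the libraries lay on opposite sides of 0 in different phagocyte states or in cells of no state, with counting intervals clear of 0 on both sides. The difference between states was not tested, and the extremes are given. The log2 ratio of Retnla was 2.795 in cells of no state, where 1 iron-positive cell gave 152 of 164 UMIs, and -6.998 in the state led by Ly6c2 and Plac8, where it rested on 3 iron-positive and 574 iron-negative UMIs. That of Chil3 was 1.29 in the state led by Mmp12 and Cd36 and -1.81 in the state led by Cd163 and Cd209f. Lyz1 had 2.45 in cells of no state and -1.37 in the Ly6c2 and Plac8 state. Ear2 had 3.04 in cells of no state and -5.51 in the Cd163 and Cd209f state, where it rested on 2 iron-positive and 37 iron-negative UMIs. Saa3 had 1.56 in the cycling state and -0.51 in the state led by Fcrls and Cx3cr1. Selenop had 0.63 in the Cd163 and Cd209f state and -0.49 in the Mmp12 and Cd36 state.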

How the results depend on the processing

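Retnla was lower in the iron-positive library under each of 17 alternatives tried, with log2 ratios of -2.58 to -0.92. It was -1.76 when 95% of lineage-marker UMIs had to come from the gate and -1.305 with 5 of 6 gate markers, -1.15 as a mean of each cell's CPM, -1.32 scaled by the median ratio, -1.09 thinned to 1000 UMIs and -2.58 with states weighted equally. In alternatives chosen after seeing the data it was -1.81 without the richest cell and -2.26 without the 2 richest cells of each library, -0.92 without Retnla-high cells, -1.08 without the deepest 5% of phagocytes, -0.99 without Ighm and -1.23 with no lineage share asked. The median of Cbr2, Folr2, Lyve1 and Selenop (0.04) had no stable sign, at -0.15 with the 95% share, 0.15 scaled by the median ratio, -0.67 with equal states, -0.14 with no lineage share and -0.25 over all kept cells. Saa3 came to -0.00728 with equal states and Ear2 to 1.16 without Retnla-high cells. Ear2 came to -0.29 without the richest Retnla cell of each library and to -0.15 as a mean of each cell's CPM. Over the 17 alternatives Ear2 ran from -1.71 to 1.16, below 0 in 16 of them. Chil3 stayed above 0 in 17 of 17 alternatives, at 0.087 to 0.509, and was lowest over all kept cells. Except where an alternative's construction shows it (fewer cells, other weights), the cause was not tested. The Retnla share among Cd163-positive cells was lower in the iron-positive library in 8 of 8 alternatives (differences of -8.73 to -2.09 percentage points), and its interval reached 0.42 with 5 of 6 gate markers. The share of Retnla-high cells was lower in 15 of 15 (log2 ratios of -1.59 to -0.73). No paired analysis was possible because each group has 1 library. A count of 0 allows up to 0.0369% of iron-positive and 0.0339% of iron-negative phagocytes.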
